A study of Mus musculus with 19 samples.

Results

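MED1 knockout 3T3-L1 cells were compared with their wild-type parent line on day 0 of fat cell differentiation, the day given by the sample titles. The titles do not mention the hormone cocktail, and day 0 was read as the time before it. 3T3-L1, a line of mouse fibroblasts, forms fat cells when confluent cultures receive differentiation hormones. The arrays were chosen by title: 2 of MED1 knockout cells and 2 of wild-type cells, 4 of the 19 arrays in the series. The knockout clones had been made with CRISPR/Cas9, and each knockout array held a pool of RNA from separate clones, while the wild-type arrays held RNA of the parental line. Differences that arose during cloning and effects of MED1 loss cannot be told apart in this design. Day 2 arrays of the same lines, 2 of MED1 knockout and 2 of wild-type cells, were used beside them for the spread and for comparison. The arrays of brown fat, 7 embryonic and 4 adult, were not used. Values are the deposited log2 signals of 22180 genes.

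Mediator is a large complex that relays signals from DNA-bound transcription factors to RNA polymerase II. Its subunit MED1 carries the motifs through which nuclear receptors bind the complex, and it is known as a partner of PPARγ in fat cells. Type I interferons act on cells through the receptor pair IFNAR1 and IFNAR2 and the kinases JAK1 and TYK2. Transcription factors such as STAT2 and IRF9 then act at an interferon response element and turn on antiviral genes. Many fibroblasts keep a low level of these genes without added interferon.

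Title and source label name different days for 4 of the 8 arrays of cells. Among the day 0 arrays by title these are replicate 2 of the knockout and replicate 2 of the wild type, whose source label names cells 2 days after hormones. Days were taken from the titles, and results with the source label are given where they touch a call. Cebpd, a transcription factor gene that the hormones induce early, had log2 signals of 5.21 and 5.46 in the knockout arrays and 5.30 and 5.03 in the wild-type arrays titled day 0. In the 4 arrays titled day 2, Cebpd lay between 7.69 and 8.46. No array was moved because of its values. The labels do not say whether replicates were separate cultures, and p-values therefore reflect array-to-array spread that may be technical.

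The 4 day 0 arrays had medians over all genes of 5.09 to 5.11 and correlated closely across genes, which are not independent replicates. Pearson's r was 0.993 between the knockout arrays and 0.992 between the wild-type arrays. Between genotypes it was 0.992 for the arrays numbered 1 and 0.994 for those numbered 2. The 10 fibroblast markers averaged 11.1 to 11.3 per array. The mean of the 10 macrophage markers was 4.51 and 4.47 in knockout cells and 4.40 and 4.29 in wild-type cells, and that of the 10 endothelial markers was 4.0 to 4.1 in the 4 arrays. Of the fat cell markers, Adipoq lay between 3.35 and 3.49 and Fabp4 between 2.97 and 3.51 over both genotypes, under the lower quartile of each array. Plin1 lay between 4.84 and 5.21 and Cidec between 4.37 and 4.78. None of the marker genes of the 5 cell type lists passed the test between genotypes.

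Med1 was checked first. Its log2 signal was 7.07 and 7.16 in knockout cells, against 8.23 and 8.48 in wild-type cells. Both knockout arrays lay below both wild-type arrays, a 2.36-fold lower signal (log2 fold change -1.24 ± 0.15, SE, limma adjusted p = 0.0165). The knockout signal of Med1 stayed above the median of all genes on its arrays, and which exons the probes cover is not known here. The signal does not measure how much protein was left.

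Of 33 measured Mediator subunit genes, Med1 was the 1 that passed, and the median difference of the list was 0.07 against 0.01 over all genes. The other subunits, looked at after their values were known, lay between -0.25 and 0.31 on the log2 fold change scale. Among 20 genes of other nuclear receptor coregulators none was called, with a median difference of 0.04. The genes beside Med1 did not pass either. Stac2 had a log2 fold change of -0.34 and Mir5119 of -0.05. Fbxl20 had 0.08, and Cdk12, a kinase of the elongating polymerase, had 0.13.

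Across the 22180 genes, limma called 41 between knockout and wild-type cells (0.185%), 6 higher (0.0271%) and 35 lower (0.158%) in the knockout, at a Benjamini-Hochberg adjusted p under 0.05. At an unadjusted p under 0.05 there were 1083 genes (4.88%), and 74 genes (0.334%) differed by at least 2-fold in either direction. The shares called higher and lower among all genes are the background for the calls counted in each gene list. The groups did not overlap for any of the 41. Over all genes, both knockout arrays lay below both wild-type arrays in 16.1% and above them in 17.9%. The number of calls depended on each array. It was 3 without knockout replicate 1, 6 without knockout replicate 2, 25 without wild-type replicate 1 and 5 without wild-type replicate 2. When all 41345 transcript clusters of the table were tested together, an alternative added after the results were seen, 3 of the 41 genes passed, namely Mest, Mmp13 and Tecrl. With days by the source label 1 gene passed, Mest.

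**Figure D1:**
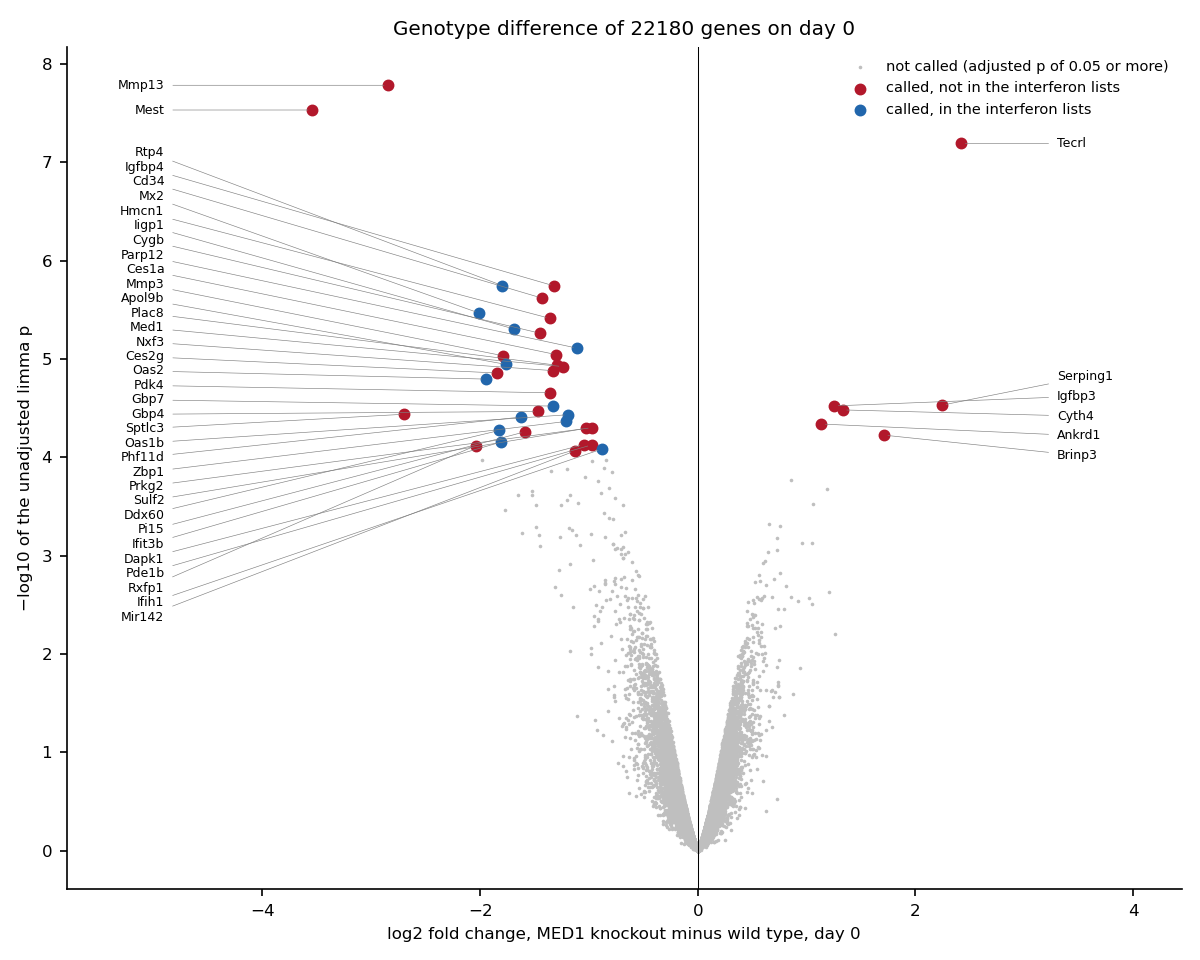
Each point is 1 of 22180 genes, with the log2 fold change of MED1 knockout minus wild type on day 0 on the x axis and minus the log10 of the unadjusted limma p on the y axis. The 41 called genes are coloured and named, 35 to the left of 0 and 6 to the right, and 13 of those to the left belong to the interferon lists.

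Mest had the largest difference. This imprinted gene, transcribed from the paternal copy, encodes a hydrolase-fold protein and is known to rise in expanding fat tissue. Its signal was 4.58 and 4.54 in knockout cells, against 8.45 and 7.76 in wild-type cells, so Mest was 11.7-fold lower (-3.54 ± 0.21, limma adjusted p = 0.000325). The groups lay far apart, and Mest kept its call in each of the 15 other settings. Its neighbours on the chromosome were not called: Cep41 had a log2 fold change of -0.07 and Copg2 of -0.16, and Cpa1, dim in the knockout, was at least 1.08-fold lower. Mir335, a microRNA gene within Mest, was dim in both genotypes, at 2.27 and 2.55 in knockout and 3.17 and 2.53 in wild-type cells.

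Of 39 measured imprinted genes, Mest was the 1 called, and the median of the list was -0.02. Dcn, the proteoglycan decorin, had 11.02 and 10.96 in knockout and 11.73 and 11.57 in wild-type cells without passing (-0.66 ± 0.16). Ndn, which encodes necdin, had -0.52 ± 0.25. Dlk1, an inhibitor of fat cell formation, did not separate the genotypes, with 11.20 and 10.73 in knockout and 11.30 and 10.87 in wild-type cells.

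The matrix metalloproteinase gene Mmp13, a collagenase, had 4.43 and 4.64 in knockout cells, against 7.54 and 7.22 in wild-type cells. Mmp13 was 7.18-fold lower (-2.84 ± 0.16, limma adjusted p = 0.000325) and was called without any single array. Mmp3, the stromelysin that activates other proteases, had 4.99 and 5.66 in knockout and 7.14 and 7.08 in wild-type cells, 3.45-fold lower. These were the 2 called of 24 measured genes for matrix proteases and their inhibitors, against 0.185% of all genes. The median of that list was -0.10. Timp3, an inhibitor, missed the test at -0.67 ± 0.30. Other genes of the same Mmp cluster were looked at after their values were known. Mmp8, Mmp1a, Mmp1b and Mmp12 were dim in both genotypes, between 2.21 and 3.67 in the 4 arrays. Mmp10 had 4.02 and 4.02 in knockout and 3.79 and 3.83 in wild-type cells, near the arrays' lower quartiles of 3.74 to 3.79.

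Structural matrix genes were counted apart. None of 28 collagen genes was called (median 0.01). Col12a1, which decorates collagen fibrils, had a log2 fold change of -0.96 ± 0.23, and Col28a1 one of -0.57 ± 0.20. Hmcn1, the large basement membrane protein hemicentin, was the 1 called of 32 glycoproteins and proteoglycans, 2.56-fold lower, with 4.60 and 4.47 in knockout and 6.04 and 5.75 in wild-type cells. Efemp1 did not pass (-0.79 ± 0.19). Omd did not either, with 3.77 and 3.54 in knockout and 4.94 and 4.28 in wild-type cells, at least 1.78-fold lower as its knockout signals lay under the lower quartile. Sulf2, an enzyme that trims sulphate from heparan sulphate chains, was 2.04-fold lower.

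Sptlc3, a catalytic subunit of serine palmitoyltransferase, the enzyme that starts sphingolipid synthesis, had 4.24 and 4.18 in knockout cells. In wild-type cells it had 6.66 and 7.16. Sptlc3 was therefore 6.49-fold lower in the knockout (-2.70 ± 0.37, limma adjusted p = 0.0302). No other of the 27 measured sphingolipid genes passed, and the list's median was 0.03.

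Tecrl, related to an enoyl-CoA reductase and best known from heart muscle, had 5.42 and 5.39 in knockout cells, against 2.93 and 3.04 in wild-type cells. Both wild-type values lay under the lower quartile of their arrays, which was 3.74 to 3.79 on day 0. The fold against that quartile is a bound: Tecrl was at least 3.12-fold higher in the knockout (fitted difference 2.42 ± 0.16, limma adjusted p = 0.000473). Its call was kept without any single array.

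Serping1, the inhibitor of the complement protease C1, was 4.74-fold higher in the knockout. It had 7.87 and 7.16 in knockout and 5.58 and 4.96 in wild-type cells (2.25 ± 0.30, limma adjusted p = 0.029), the 1 call among 22 complement and coagulation inhibitor genes. Brinp3, known from the nervous system, was 3.27-fold higher, and Cyth4, an exchange factor for ARF GTPases, 2.52-fold higher. Ankrd1, a classic target of the coactivator YAP, was 2.20-fold higher and was the 1 called of 25 contractile and YAP target genes. In that list Ccn1, another YAP target, had 9.81 and 8.98 in knockout and 9.10 and 8.23 in wild-type cells, with overlapping groups.

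**Figure D2:**
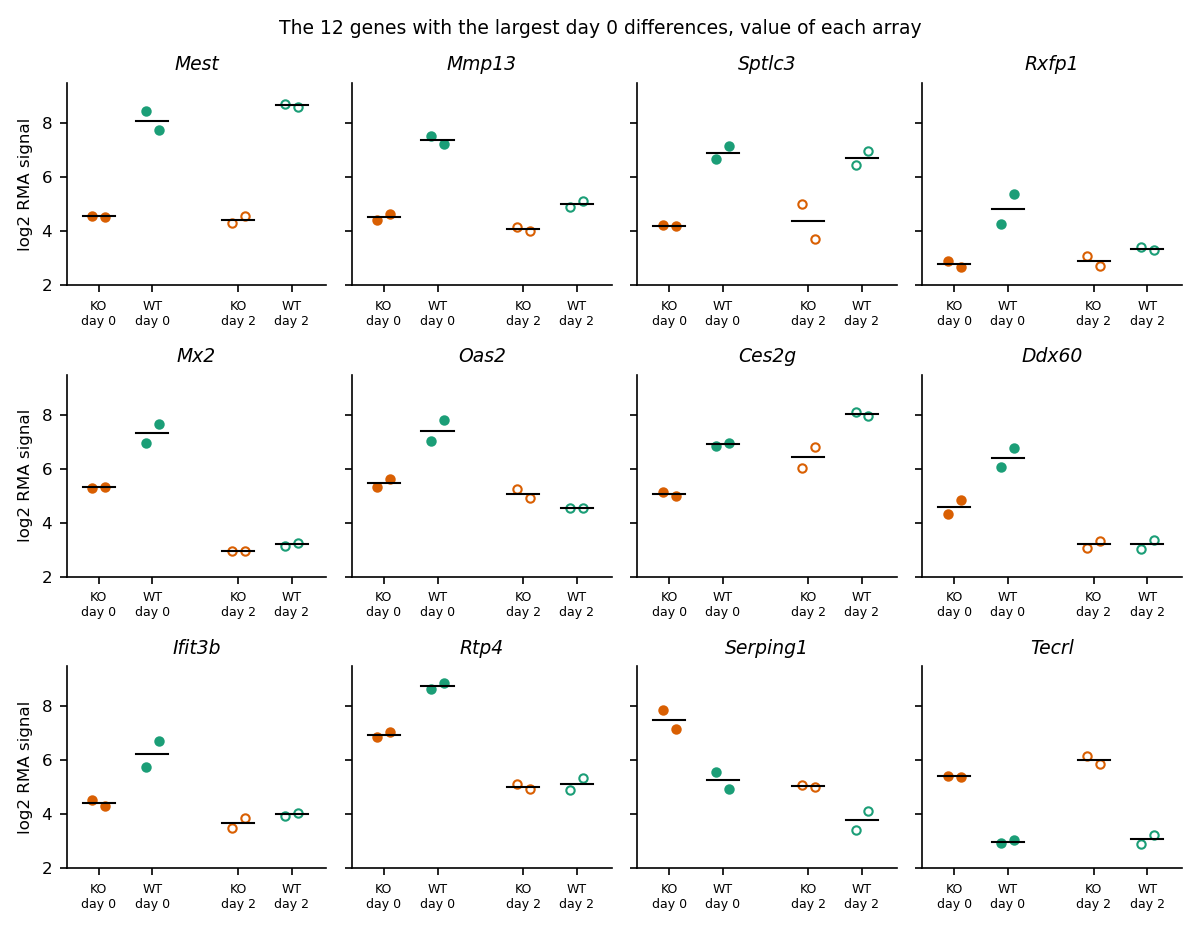
The 12 genes with the largest day 0 differences are shown with the log2 RMA signal of each array on the y axis, filled points for day 0, open points for day 2, and a bar at each group mean (n = 2). On day 0 the knockout points of 10 genes lie below both wild-type points, and those of Serping1 and Tecrl lie above them.

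Genes of the insulin-like growth factor system moved in both directions. IGF binding proteins hold IGFs outside the cell, and pappalysins release them by cutting the binding proteins. Igfbp4 had 7.44 and 7.59 in knockout cells, against 8.89 and 8.77 in wild-type cells, 2.49-fold lower. Igfbp3, the main carrier of IGFs in blood, had 6.18 and 5.79 in knockout and 4.66 and 4.81 in wild-type cells, 2.38-fold higher. Both passed, as the 2 called of 20 measured genes of the system, against 0.185% of all genes. Pappa did not (-0.76 ± 0.17). Nor did Pappa2, with 3.33 and 3.34 in knockout and 3.95 and 3.99 in wild-type cells, where the knockout signals under the lower quartile give a bound of at least 1.14-fold lower.

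Cd34, a surface sialomucin of stromal progenitors, had 4.51 and 4.35 in knockout and 5.91 and 5.82 in wild-type cells, 2.70-fold lower. With Mest it made up the 2 called of 28 preadipocyte and stromal genes, against 0.185% of all genes. The median of that list was -0.01. Cygb, a haem protein of fibroblasts, was 2.74-fold lower, and Plac8 2.45-fold lower. Rxfp1, the relaxin receptor, had 2.92 and 2.69 in knockout and 4.28 and 5.40 in wild-type cells, at least 2.09-fold lower.

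Several called genes outside these groups encode enzymes. Ces2g, a carboxylesterase of the family that hydrolyses lipid esters and drugs, had 5.15 and 4.98 in knockout and 6.85 and 6.98 in wild-type cells, 3.60-fold lower. Ces2g was the 1 called of 29 genes of xenobiotic metabolism (median -0.08), and Ces1a, a related enzyme, was 2.46-fold lower. Pdk4, a kinase that holds back pyruvate oxidation, was 2.56-fold lower, the 1 called of 24 glucocorticoid and cAMP target genes. Within that list Angptl4, an inhibitor of lipoprotein lipase, had 10.04 and 8.02 in knockout and 9.49 and 7.32 in wild-type cells. Its arrays thus differed more by replicate number than by genotype.

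The other called genes outside the interferon lists were all lower in the knockout. Pi15, a secreted peptidase inhibitor, was 3.00-fold lower and Nxf3, of the mRNA export factor family, 2.52-fold. For Prkg2, the type 2 cGMP-dependent kinase, the fold was 1.96, as it was for Pde1b, a phosphodiesterase stimulated by calmodulin. Dapk1, a calmodulin-dependent kinase, was at least 1.37-fold lower. Gbp4, an interferon-induced GTPase left out of the lists, was at least 2.31-fold lower. Other called genes outside the lists, higher or lower, were not checked for a response to interferon. The last call was Mir142, a microRNA gene best known from blood cells, with 4.06 and 3.95 in knockout and 5.26 and 5.01 in wild-type cells. It lay outside the naming rule and is given because it completes the 41.

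Interferon-stimulated genes, the longest of the 28 lists of genes by role, also had the most calls. The lists were chosen with earlier results of these data known, so this rank is a description and not a test. Of 57 measured, 12 were called lower in knockout cells and none higher, against 0.158% and 0.0271% of all genes. In 46 both knockout arrays lay below both wild-type arrays, and in 2 they lay above, against 16.1% and 17.9% of all genes. The median log2 fold change of the list was -0.85, beside 0.01 over all genes, and 50 of the 57 values were negative against 48.3% of all genes. Averaged over the list, the log2 signal was 6.62 and 6.64 in the knockout arrays, against 7.35 and 7.66 in the wild-type arrays.

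These genes are known to be switched on through an interferon response element with 2 GAAA cores, and the promoters of the called genes were searched for it. The 5 called members of the interferon lists whose window held the element are shown here. Each window is the RefSeq sequence on mouse build GRCm38.p6 of 250 bases before to 50 bases after an annotated start, written 5′ to 3′ on the gene's strand. Capitals mark each match to GAAANNGAAA, or to TTTCNNTTTC where the match is on the opposite strand, and overlapping matches run together.
Apol9b, chr15:77728822-77729121, plus strand: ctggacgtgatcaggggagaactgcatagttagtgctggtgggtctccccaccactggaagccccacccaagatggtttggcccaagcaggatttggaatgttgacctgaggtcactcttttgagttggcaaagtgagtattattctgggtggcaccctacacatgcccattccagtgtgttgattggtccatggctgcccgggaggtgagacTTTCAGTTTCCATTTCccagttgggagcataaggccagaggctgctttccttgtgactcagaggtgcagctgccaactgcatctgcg
Gbp7, chr3:142530086-142530385, plus strand: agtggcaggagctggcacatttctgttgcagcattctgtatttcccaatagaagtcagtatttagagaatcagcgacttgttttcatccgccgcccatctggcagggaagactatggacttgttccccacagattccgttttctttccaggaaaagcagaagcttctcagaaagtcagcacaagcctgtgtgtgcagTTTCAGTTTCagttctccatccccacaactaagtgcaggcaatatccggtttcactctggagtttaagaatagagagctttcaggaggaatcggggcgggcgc
Ddx60, chr8:61927837-61928136, plus strand: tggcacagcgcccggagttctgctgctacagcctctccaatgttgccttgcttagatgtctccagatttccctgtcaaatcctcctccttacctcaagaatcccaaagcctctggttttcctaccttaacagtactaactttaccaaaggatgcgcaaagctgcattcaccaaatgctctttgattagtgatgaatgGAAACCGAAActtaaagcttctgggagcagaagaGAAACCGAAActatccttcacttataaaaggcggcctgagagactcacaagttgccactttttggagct
Ifit3b, chr19:34607707-34608006, plus strand: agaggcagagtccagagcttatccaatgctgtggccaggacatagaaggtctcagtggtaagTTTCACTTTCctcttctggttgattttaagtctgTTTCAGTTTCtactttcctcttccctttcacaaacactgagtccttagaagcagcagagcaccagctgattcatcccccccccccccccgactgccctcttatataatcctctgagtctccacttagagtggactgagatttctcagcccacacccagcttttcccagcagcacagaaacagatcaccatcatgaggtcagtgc
Ifih1, chr2:62646206-62646505, minus strand: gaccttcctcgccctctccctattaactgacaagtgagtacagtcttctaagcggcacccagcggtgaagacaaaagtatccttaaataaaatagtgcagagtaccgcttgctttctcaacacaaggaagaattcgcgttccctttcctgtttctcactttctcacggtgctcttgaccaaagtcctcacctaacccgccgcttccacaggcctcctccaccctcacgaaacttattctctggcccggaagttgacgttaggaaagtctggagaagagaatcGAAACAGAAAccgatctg

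Counted from the start site as 0, the first base of the match was at -53 and -19 in Ddx60, at -188 and -154 in Ifit3b, at -53 in Gbp7, at -37 and -31 in Apol9b and at 32 in Ifih1. Apol9b has a second annotated start, from which the same matches begin at -86 and -80. Of all 32851 RefSeq windows, 1131 held the element on either strand (3.44%), and of the 16918 tested genes with a window 657 did (3.88%). In the interferon-stimulated list it was 23 of 43 genes with a window (53.5%). Among the genes called lower on day 0 that have a window it was 5 of 7 in the interferon lists. Of the 13 called genes of these lists, the others have no window here. Outside the lists it was 3 of 15, namely Mmp13, Sptlc3 and Pde1b. A gene was counted when any of its windows held the element, and Pde1b has other windows that did not. None of the 5 genes called higher that have a window held it. A match is a description of these letters and not a measured binding site.

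The 12 called members are given by what they do, with uncalled relatives beside them. Mx2, a dynamin-like GTPase that blocks viruses, had 5.28 and 5.34 in knockout cells, against 6.96 and 7.68 in wild-type cells, 4.02-fold lower (-2.01 ± 0.20, limma adjusted p = 0.0107). Its relative Mx1 had 4.22 and 4.84 in knockout and 5.99 and 7.04 in wild-type cells and just missed the threshold (-1.98 ± 0.31, limma adjusted p = 0.0547). Oas2 and Oas1b belong to the oligoadenylate synthetase family, whose enzymatically active members sense double-stranded RNA and activate RNase L. Oas2 had 5.33 and 5.62 in knockout and 7.02 and 7.82 in wild-type cells, 3.85-fold lower. Oas1b had 5.40 and 5.18 in knockout and 6.53 and 6.44 in wild-type cells, 2.28-fold lower.

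Among RNA-binding members, Ddx60, a helicase that assists RNA sensing, had 4.33 and 4.86 in knockout and 6.06 and 6.79 in wild-type cells, 3.54-fold lower. Ifit3b, of the family that binds viral RNA ends, had 4.53 and 4.31 in knockout and 5.77 and 6.70 in wild-type cells, 3.51-fold lower. Ifit3, a near-identical copy looked at after its value was known, had 6.09 and 6.18 in knockout and 6.28 and 5.87 in wild-type cells. The probes of such copies can share targets, so the split between them is uncertain. Ifit1 had 7.89 and 8.10 in knockout and 9.44 and 10.10 in wild-type cells without passing (-1.77 ± 0.32, limma adjusted p = 0.115).

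A pair of GTPases of cell-autonomous defence, Iigp1 and Gbp7, were among the called members. Iigp1, which attacks the vacuoles of intracellular parasites, had 6.04 and 6.22 in knockout and 7.54 and 8.10 in wild-type cells, 3.23-fold lower. Gbp7, a guanylate-binding protein, had 7.70 and 7.82 in knockout and 8.87 and 9.31 in wild-type cells, 2.51-fold lower. In both genes the 2 knockout arrays lay close together and well below the wild-type arrays.

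The remaining calls of the list had assorted roles. Rtp4, a chaperone of receptors at the membrane, had 6.88 and 7.04 in knockout and 8.64 and 8.87 in wild-type cells, 3.47-fold lower (limma adjusted p = 0.008). Apol9b, an apolipoprotein L gene, had 6.17 and 6.58 in knockout and 7.85 and 8.42 in wild-type cells, 3.39-fold lower. Zbp1, a sensor of Z-form nucleic acid that can trigger cell death, had 5.67 and 6.03 in knockout and 6.90 and 7.22 in wild-type cells, 2.32-fold lower. Groups did not overlap in any of these. Parp12, an ADP-ribosyltransferase, had 7.26 and 7.24 in knockout and 8.33 and 8.38 in wild-type cells, 2.15-fold lower. Phf11d, a PHD finger gene, had 4.43 and 3.95 in knockout and 6.07 and 5.57 in wild-type cells, 3.09-fold lower.

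Without wild-type replicate 1 the list had 12 called members, as with all arrays. It had 1 without wild-type replicate 2, and 0 without knockout replicate 1 or without knockout replicate 2. The list's median stayed between -0.61 and -0.98 on leaving out any 1 array. With days by the source label it was -0.40, with 0 called. From the 4 day 0 arrays alone 1 member was called, and 0 when all clusters of the table were tested together. The mean macrophage marker level, given above, was higher in both knockout arrays than in both wild-type arrays, and its part in this result was not tested. In 4 of these 10 markers both knockout arrays lay above both wild-type arrays and in 1 below, against 17.9% and 16.1% of all genes. Lyz2, one of the 4, had 5.43 and 5.15 in knockout and 4.98 and 4.51 in wild-type cells without passing. The leukocyte marker Ptprc, looked at after its value was known, lay at 3.06 to 3.27 in the 4 arrays.

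**Figure D3:**
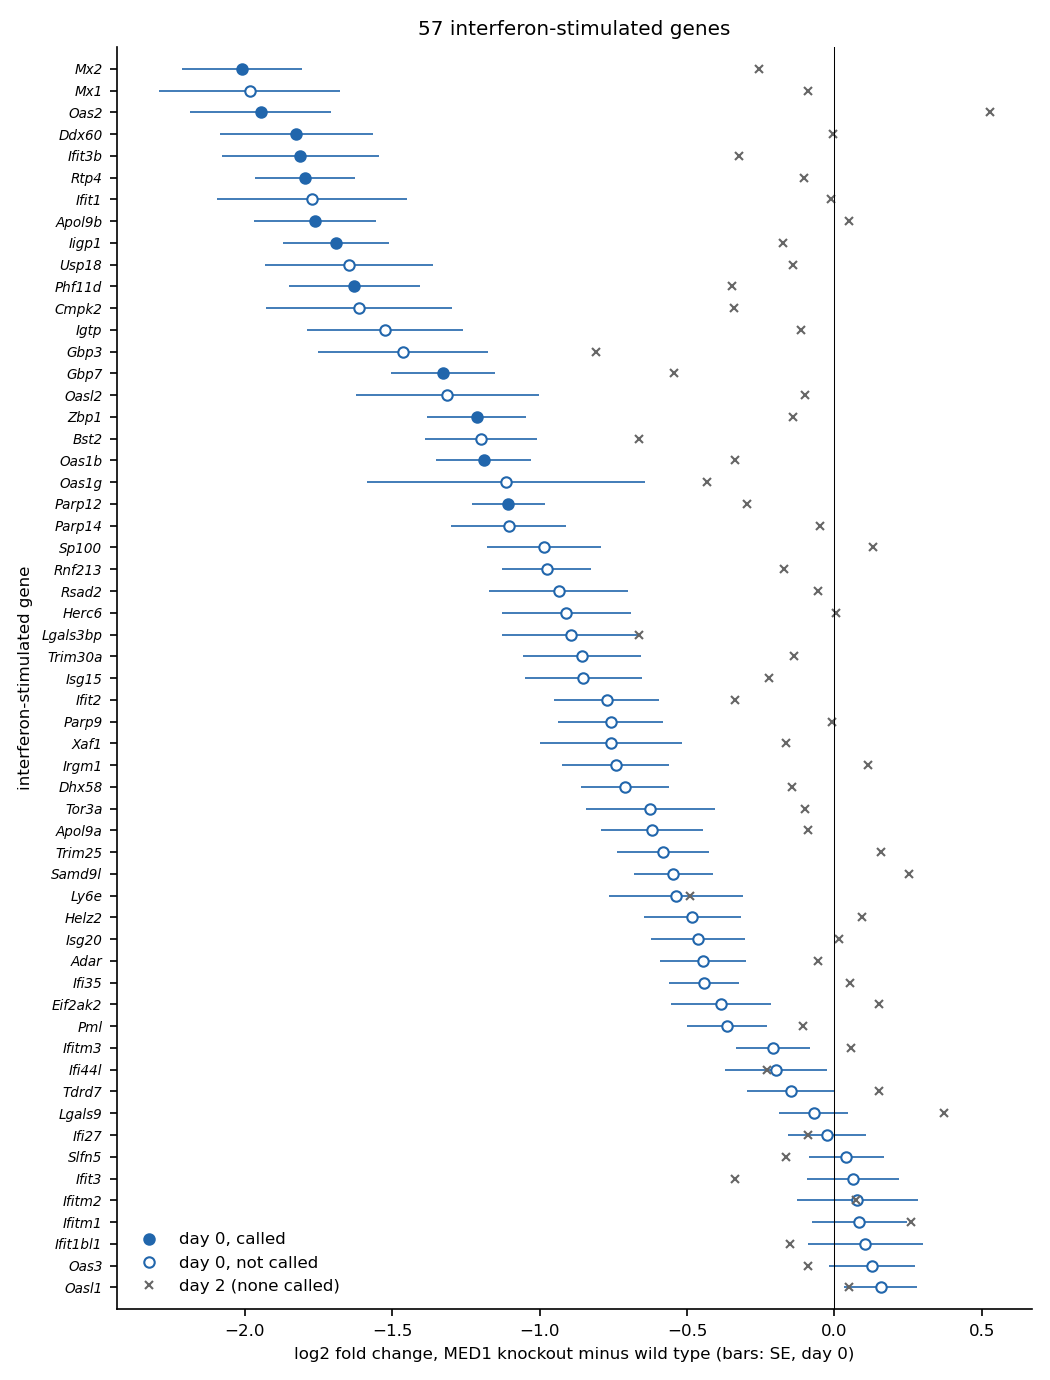
The log2 fold change, MED1 knockout minus wild type, of the 57 measured interferon-stimulated genes is given on the x axis, 1 gene a row. Circles with SE bars are day 0, filled for the 12 called genes, and crosses are day 2, when none was called. Of the circles 50 lie left of 0, and the crosses gather near 0 with a median of -0.10.

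Genes upstream of these targets formed a pair of lists of their own. None of 17 interferon ligand and receptor genes was called, and their median was 0.04. Ifnb1, the fibroblast interferon, was dim in both genotypes, at 2.95 and 2.90 in knockout and 3.23 and 2.76 in wild-type cells. The receptor genes Ifnar1 (0.06 ± 0.14) and Ifnar2 (-0.12 ± 0.13) did not pass. Interferon alpha genes are near-identical copies, and their array signals cannot be assigned to single genes.

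Of 23 sensor and signalling genes, Ifih1 was the 1 called. It encodes MDA5, a sensor of long double-stranded RNA, and had 4.20 and 4.22 in knockout and 5.22 and 4.95 in wild-type cells, 1.84-fold lower. Stat2 had 7.93 and 7.87 in knockout and 8.61 and 9.02 in wild-type cells (-0.92 ± 0.15, limma adjusted p = 0.0757). Irf9, its DNA-binding partner, had 7.68 and 7.85 in knockout and 8.47 and 8.85 in wild-type cells (-0.89 ± 0.15, limma adjusted p = 0.0921). Irf7, the factor that amplifies interferon production, had 6.89 and 6.11 in knockout and 7.88 and 7.68 in wild-type cells (-1.28 ± 0.28, limma adjusted p = 0.295). In these 3 genes the knockout arrays lay below the wild-type arrays, but none passed. Stat2, Irf9, Irf7 and Ifih1 are themselves known to be induced by interferon. The list's median was -0.12.

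For MHC class I antigen presentation, which interferon also raises, none of 14 genes was called. In 12 of them both knockout arrays lay below both wild-type arrays, beside 16.1% of all genes, and the median was -0.27. Tap1, a subunit of the peptide transporter, had 7.11 and 7.04 in knockout and 7.79 and 7.88 in wild-type cells (-0.76 ± 0.13, limma adjusted p = 0.0966), and Psmb8, an immunoproteasome subunit, had -0.70 ± 0.14. Of 32 chemokine and cytokine genes none was called either. Cxcl10, an interferon-induced chemokine, had a difference of -0.51 ± 0.20.

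No regulator of adipogenesis passed on day 0. Among 38 of them the median difference was 0.05 and none was called. Pparg, the nuclear receptor that drives the programme and a known partner of MED1, had 5.02 and 5.10 in knockout and 5.93 and 5.76 in wild-type cells, below in both arrays but short of the threshold (-0.79 ± 0.13, limma adjusted p = 0.0646). Cebpa, its partner, had 5.15 and 4.95 in knockout and 5.53 and 5.46 in wild-type cells (-0.44 ± 0.13). Cebpb had a difference of -0.01 ± 0.15. Id2, a helix-loop-helix inhibitor of differentiation, had 8.15 and 8.17 in knockout and 7.06 and 7.16 in wild-type cells (1.05 ± 0.21, limma adjusted p = 0.194).

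None of the 28 mature fat cell genes was called on day 0, and their median was -0.04. Fabp5, a fatty acid binding protein, had the largest difference of the list with the cluster used, 0.54 ± 0.29. Its 4 transcript clusters gave 0.29 to 0.54, the lowest from the cluster that was brightest over the 8 arrays of cells. In the Wnt pathway, which holds preadipocytes undifferentiated, none of 44 genes passed. Rspo3, which strengthens Wnt signals, had 7.05 and 6.52 in knockout and 5.58 and 5.62 in wild-type cells (1.18 ± 0.20, limma adjusted p = 0.0867), and Sfrp2, a secreted Wnt antagonist, had -0.52 ± 0.20. Among 38 genes of the TGFβ and BMP pathway none passed. Ltbp2 had 0.73 ± 0.15 and Id1, a BMP target, 0.74 ± 0.19.

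Housekeeping groups showed no calls. Of 36 cell cycle genes 33 had negative values, beside 48.3% of all genes, with a median of -0.22. In 6 of the 36 both knockout arrays lay below both wild-type arrays, near the 16.1% of all genes. Averaged over these genes, the signal was 6.34 and 6.72 in knockout and 6.50 and 7.08 in wild-type cells, so that the arrays numbered 2 were higher in both genotypes. Without wild-type replicate 2 the median was 0.03. On day 2 all 36 had negative values, beside 51.6% of all genes, with a median of -0.43 and 0 called. In 27 of them both day 2 knockout arrays lay below both wild-type arrays, beside 18.9% of all genes. All 18 cholesterol synthesis genes had negative values on day 0, beside 48.3% of all genes, with a median of -0.25. In 2 of the 18 both knockout arrays lay below both wild-type arrays, beside 16.1% of all genes. Their mean level, 7.29 and 7.96 in knockout and 7.46 and 8.34 in wild-type cells, also differed more by replicate number. Their median was 0.16 without wild-type replicate 2 and 0.08 without knockout replicate 1. The 22 p53 target genes (median -0.11), 32 genes of the unfolded protein response (0.04), 24 ribosomal protein genes (-0.04) and 36 respiratory chain genes (-0.06) had no calls.

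**Figure D4:**
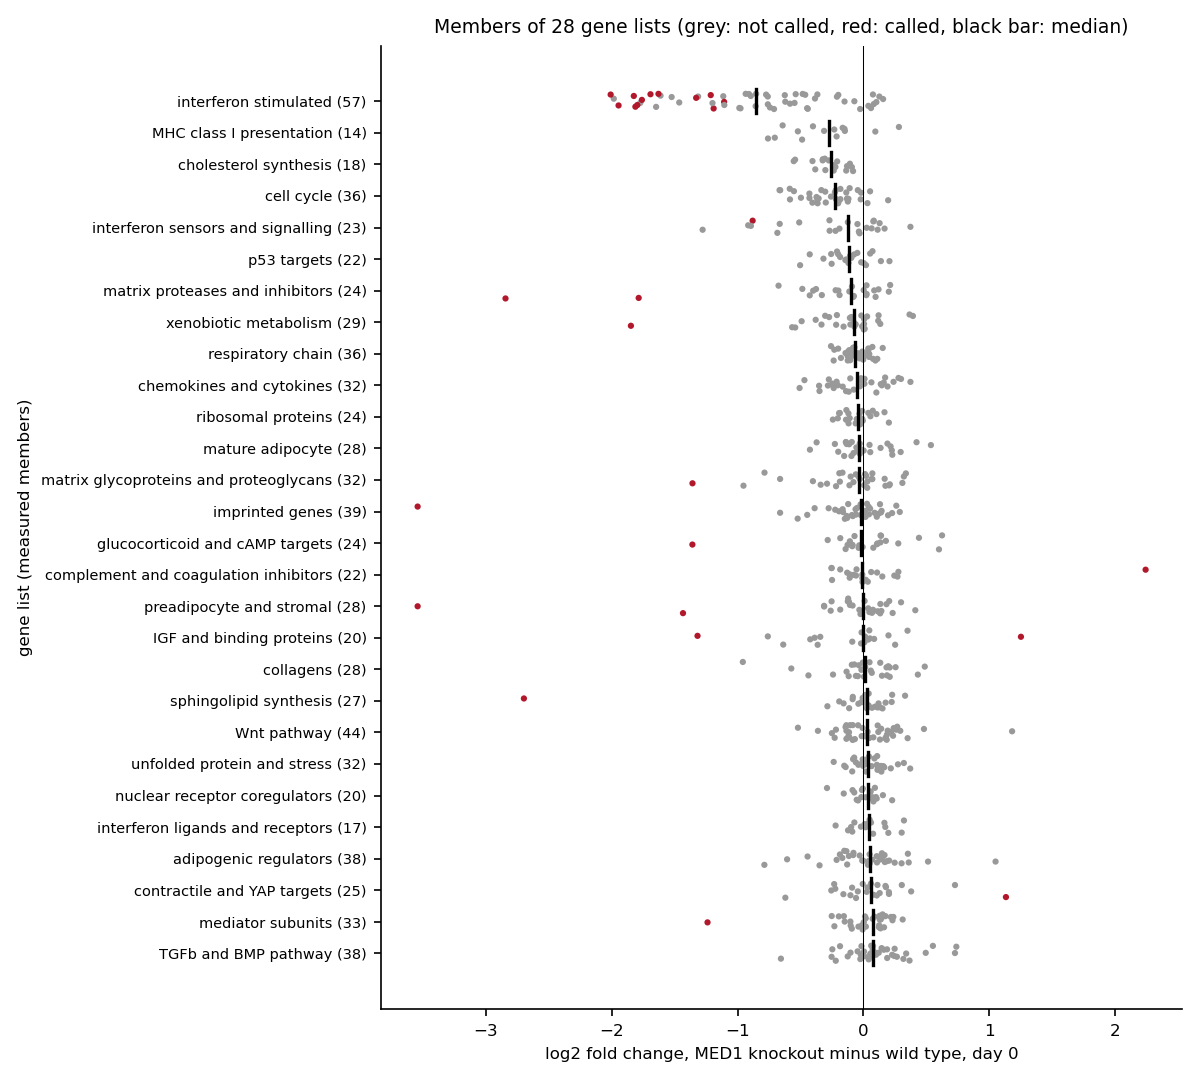
Each row is 1 of 28 gene lists with its number of measured members, and each point is 1 gene at its log2 fold change, MED1 knockout minus wild type on day 0, on the x axis. Red points are called, and the black bar is the median, which is -0.85 for interferon-stimulated genes and between -0.27 and 0.08 for the other lists.

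The day 2 arrays, which took no part in choosing these genes beyond the shared spread estimate, were set beside day 0. Of the 41 genes, 14 were also called on day 2 with the same sign (34.1% of the 41, and 23.7% of the 59 called on day 2, with 0.266% of all genes called there, 0.0316% higher and 0.234% lower). None was called with the opposite sign, and 35 of the 41 kept their sign. Of the 35 genes called lower on day 0, 30 also had negative values on day 2, when 51.6% of all genes did. The 14 were Mest, Tecrl, Igfbp4, Cd34, Hmcn1, Cygb, Med1, Nxf3, Ces2g, Pdk4, Sptlc3, Pi15, Brinp3 and Dapk1. Mest had a log2 fold change of -4.24 ± 0.21 on day 2, Sptlc3 of -2.34 ± 0.37 and Tecrl of 2.93 ± 0.16.

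The 13 called genes of the interferon lists had a median of -1.69 on day 0 and -0.18 on day 2, and 0 of them were called on day 2. The other 28 had a median of -1.31 on day 0 and -0.66 on day 2, and 14 of them were called on day 2. Over the whole list of 57, the mean level on day 2 was 5.53 and 5.55 in knockout and 5.60 and 5.71 in wild-type cells. On day 2, 40 of the 57 had negative values, beside 51.6% of all genes. In 17 of the 57 both day 2 knockout arrays lay below both wild-type arrays, beside 18.9% of all genes. The same held for 8 of the 13 called genes of the interferon lists. The test of the difference between the effects of the 2 days called no gene (0%), with 941 at an unadjusted p under 0.05 (4.24%). Among the 57 interferon-stimulated genes 32 had such an unadjusted p, and none passed the adjustment. For Mx2 the effect was -0.26 ± 0.20 on day 2, and the adjusted limma p of the difference was 0.326. Its day 2 signals, 2.94 and 2.96 in knockout and 3.14 and 3.27 in wild-type cells, lay under the lower quartile of each array. Ddx60 and Mx1 were also dim in both genotypes on day 2. For such genes a small day 2 effect cannot show whether the genotypes differed.

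Values of some genes outside the interferon lists also moved between the days without passing the test of the difference. Mmp13 had -0.92 ± 0.16 on day 2 (limma adjusted p of the difference 0.103). Igfbp3 had the opposite sign on day 2, with -0.69 ± 0.17 against 1.25 on day 0 (limma adjusted p of the difference 0.103). Ankrd1 had 0.20 ± 0.16, and Mmp3 had -0.55 ± 0.20. Pparg, uncalled on day 0, had -2.01 ± 0.13 on day 2, with an adjusted p of 0.184 for the difference of the limma effects.

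**Figure D5:**
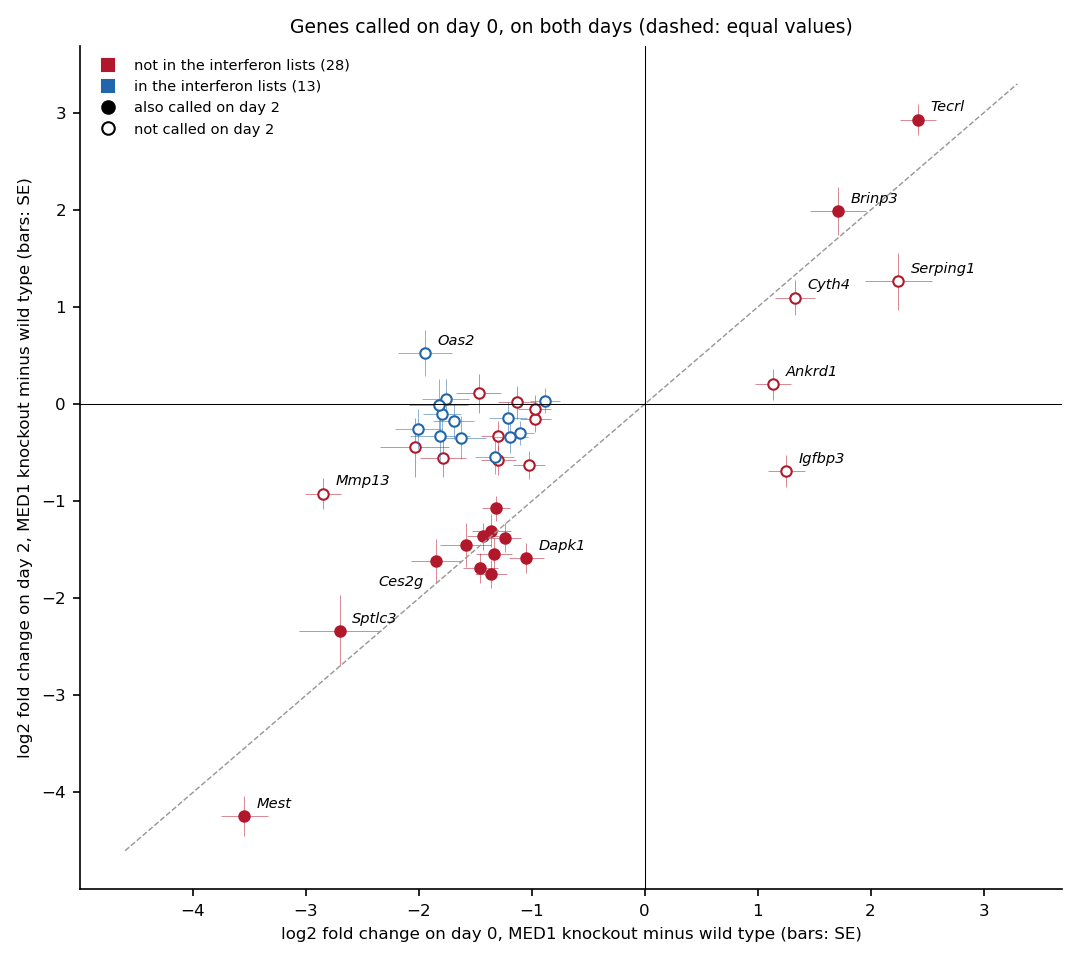
The 41 genes called on day 0 are placed by their log2 fold change, MED1 knockout minus wild type, on day 0 (x axis) and day 2 (y axis), with SE bars. The 14 filled points were also called on day 2 with the same sign, so that choice alone sets them far from 0 on both axes. The dashed line marks equal values. The 13 genes of the interferon lists lie between -0.54 and 0.53 on the y axis.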

How the data were processed

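RNA of 3T3-L1 cells was measured on Affymetrix whole-transcript arrays, after Trizol extraction and biotin labelling with the WT PLUS kit, per the labels' protocols. The authors deposited log2 signals. RMA and Transcriptome Analysis Console are named, without versions, in the submitters' processing notes. RMA subtracts background, brings arrays to one distribution and summarises probes by transcript cluster. For genome build and annotation nothing is given in the sources used here. Values carry no test against background, and the number of arrays limits the precision.

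Of 41345 clusters, 23521 with 1 gene symbol in the platform annotation were kept (1814 had several and 16010 none). The cluster with the highest mean over 19 arrays stood for each of the 1082 genes with more than 1, which left 22180 genes. Of these, 21994 matched the gene table by Entrez ID.

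The 4 groups of 2 arrays, by title, were fitted together in limma 3.58.1 (R 4.3.3, lmFit, then eBayes with no trend, two-sided), with 4 residual degrees of freedom. p-values were adjusted by Benjamini-Hochberg over all 22180 genes with a threshold of 0.05, and "called" means below it. Values after ± are standard errors. Where both arrays of the dimmer genotype fell below the lower quartile of their own signals, the fold is a bound, written "at least". The fit was tested on simulated data.

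The members, the 33 gene lists (28 by role and 5 of cell type markers) and the tests were chosen with earlier results of these data known. Named genes were 14 genes of fat cell and interferon biology (1 is not reported here), the called genes, up to 2 uncalled members of each list, and 2 neighbours on each side of Med1 and Mest. Values per array were given for the 12 largest differences and the called interferon genes at least. Uncalled list members with an absolute log2 fold change under 0.5 were not named, a limit set after the values were seen. Alternatives were 14 chosen at the outset and 1 added later.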

Additional observations from a re-analysis of the deposited data

Results flagged for a closer look

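In 6 of the 92 named genes (6.52%) both knockout arrays lay on one side of both wild-type arrays on day 0 and on the opposite side on day 2, as in 902 of all 22180 genes (4.07%). By limma's test of the difference between the effects of the 2 days none of them passed. The values that follow are the day 2 effect minus the day 0 effect, each effect being MED1 knockout minus wild type on the log2 scale. It was 2.47 for Oas2 (adjusted p = 0.161), -1.95 for Igfbp3 (adjusted p = 0.103) and 0.99 for Irf9 (adjusted p = 0.588). It was 0.93 for Col28a1 (adjusted p = 1), -2.15 for Fabp5 (adjusted p = 0.451) and 0.38 for Cpa1 (adjusted p = 1).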

How the results depend on the processing

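The 41 calls (6 higher and 35 lower, 14 of them also called on day 2) stayed within 1.5 times under an intensity trend, the mean of a gene's clusters, quantile normalization, median centring and the limit to brighter genes (32 to 48 calls). The median difference of all genes moved by under 0.1 with the scaling. The day 0 arrays alone gave 7 calls (1 higher and 6 lower), all among the 41. Days by the source label, which put arrays of both title days in a group, gave 1 (0 higher and 1 lower), with 0 also called on day 2. All clusters tested together, added after the data were seen, gave 3 (1 higher and 2 lower, 2 also called on day 2). On leaving out replicates, calls ranged from 2 to 25, calls higher from 0 to 2, calls lower from 2 to 23, genes also called on day 2 from 1 to 6 and calls for the difference between days from 0 to 2. A lone array in a group is then assumed to vary like the others. Mx1 was called in 6 settings and Pparg in 1, the limit to brighter genes (adjusted p = 0.0438 by limma).

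Same-day arrays share replicate numbers, and their deviations from the group means correlated at 0.353 on day 0 and 0.296 on day 2. With 2 pairs a day these numbers were not taken to pair the samples. With the replicate block 68 genes were called (8 higher and 60 lower), the 41 included, 21 of the 68 also on day 2 and 1 for the difference between days. Mx1, Irf9 and Id2 were among the added calls, and the interferon-stimulated list had 18, against 1 from the day 0 arrays alone and 0 with all clusters tested together.

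Values that changed sign belonged to uncalled genes, and the cause was not tested. By the source label these were Cxcl10 (0.0193), Fabp5 (-0.657), Ifnar2 (0.0377), Ifnb1 (0.0394) and Mir5119 (0.0233), and with quantile normalization Cebpb (0.002). With replicates left out, Nsdhl ranged from -1.21 to 0.125, Angptl4 from -0.46 to 1.71, Dlk1 from -0.357 to 0.117 and Fabp4 from -0.383 to 0.158. Cep41 ranged from -0.208 to 0.0762, Mir5119 from -0.346 to 0.245 and Ifnb1 from -0.305 to 0.163. Mir335 ranged from -0.896 to 0.0188, Cebpd from -0.0936 to 0.432 and Fbxl20 from -0.0225 to 0.18.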

Other observations

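One transcript cluster for which no single gene symbol was available here had 7.18 and 7.44 in knockout arrays and 4.55 and 4.74 in wild-type arrays on day 0. When all 41345 clusters were tested together it was the 1 call among the 17824 with no or several symbols (log2 fold change 2.67 ± 0.16, limma adjusted p = 0.0231). On day 2 the same cluster had 7.07 and 6.77 in knockout and 4.62 and 4.52 in wild-type arrays.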
